A study of Mus musculus with 12 samples.

Results

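The genes examined are 7 chemokine receptors of mouse epidermal myeloid cells, Cxcr4, Cx3cr1, Ccr2, Ccr1, Ccr6, Ccr7 and Ccrl2. They were taken by symbol, and all 7 stood in the table of 23420 gene symbols. All 7 also passed a filter that kept the 10023 genes with a value above 0 in at least 3 of the 12 libraries, although Ccr6 passed it only through the P5 wt group, being above 0 in 1 other library. RNA was measured in cells sorted from epidermis by the surface phenotype CD45+CD3-CD11b+MHCII+, with 100 cells in each tube. The groups were mice without Cbfβ2 at 1.5 months of age (1.5M KO), wild-type mice at 1.5 months (1.5M wt), mice without Cbfβ2 at day 5 after birth (P5 KO) and wild-type mice at day 5 (P5 wt), with 3 libraries each. The study compared the genotypes at each age. Strain, sex, allele and any driver of the deletion are not given in the sources used here, and neither is the number of animals behind a tube. By the labels, replicates are independent preparations of libraries, so the p-values below measure the spread between preparations, which may be technical.

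Chemokine receptors are membrane receptors that couple to inhibitory G proteins and steer leukocytes along gradients of small secreted proteins, the chemokines. Cxcr4 is the receptor of Cxcl12 and holds precursor cells and many leukocytes in bone marrow and tissues, Cx3cr1 is the receptor of the membrane-bound chemokine Cx3cl1 and marks monocytes and many tissue macrophages, and Ccr2, the receptor of Ccl2, brings monocytes out of the bone marrow and into inflamed tissue. Ccr1 binds several inflammatory chemokines, Ccr6 is the receptor of Ccl20, which epithelia secrete, and Ccr7, the receptor of Ccl19 and Ccl21, takes mature dendritic cells and Langerhans cells to lymph nodes. Ccrl2 is an atypical receptor that binds chemerin and is not known to signal through G proteins. Cbfβ is the partner subunit of the Runx transcription factors and strengthens their binding to DNA, and Cbfβ2 is one of its splice forms.

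The stretches around the annotated starts of 5 of the receptors are printed here because only some of them hold the core motif of Runx factors, TGTGGT. Of the 5, Cxcr4, Cx3cr1, Ccr2 and Ccr1 had an adjusted p under 0.05 (limma) in at least 1 comparison below. Ccr6 passed only against P5 wt, through whose values alone it was tested, so its stretch is shown for the motif only. Each stretch runs from 250 bases before to 50 bases after the start, 5′ to 3′ on the gene's strand, from RefSeq for GRCm38.p6, the patched form of mm10. For Ccr2 the start used lies inside the gene, whose span begins at chr9:124101918. Its stretch therefore holds no bases from before that span. Capitals mark TGTGGT or its reverse complement, ACCACA. The stretches are chr1:128592250-128592549 (minus strand) for Cxcr4, chr9:120068247-120068546 (minus) for Cx3cr1, chr9:124101933-124102232 (plus) for Ccr2, chr9:123968643-123968942 (minus) for Ccr1 and chr17:8235793-8236092 (plus) for Ccr6.
Cxcr4: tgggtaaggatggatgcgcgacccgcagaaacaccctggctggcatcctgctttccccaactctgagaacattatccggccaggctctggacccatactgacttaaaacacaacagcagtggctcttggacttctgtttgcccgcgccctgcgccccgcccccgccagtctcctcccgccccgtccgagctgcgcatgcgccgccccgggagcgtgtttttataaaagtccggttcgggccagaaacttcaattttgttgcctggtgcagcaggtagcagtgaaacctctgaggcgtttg
Cx3cr1: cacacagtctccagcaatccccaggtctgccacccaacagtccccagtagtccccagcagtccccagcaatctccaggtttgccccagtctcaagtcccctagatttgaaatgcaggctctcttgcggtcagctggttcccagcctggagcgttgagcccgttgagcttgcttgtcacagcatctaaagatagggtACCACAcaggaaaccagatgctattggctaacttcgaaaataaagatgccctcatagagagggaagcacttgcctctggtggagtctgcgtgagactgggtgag
Ccr2: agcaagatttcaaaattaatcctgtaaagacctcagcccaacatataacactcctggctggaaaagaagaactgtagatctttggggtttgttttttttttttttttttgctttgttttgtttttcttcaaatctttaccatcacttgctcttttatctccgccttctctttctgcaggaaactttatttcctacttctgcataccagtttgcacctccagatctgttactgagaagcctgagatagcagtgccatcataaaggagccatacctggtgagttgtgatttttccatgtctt
Ccr1: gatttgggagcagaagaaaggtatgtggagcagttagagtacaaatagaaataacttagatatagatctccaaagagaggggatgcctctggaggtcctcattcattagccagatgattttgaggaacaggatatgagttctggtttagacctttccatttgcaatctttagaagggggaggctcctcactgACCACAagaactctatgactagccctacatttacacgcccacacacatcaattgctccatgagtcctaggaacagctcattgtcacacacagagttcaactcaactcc
Ccr6: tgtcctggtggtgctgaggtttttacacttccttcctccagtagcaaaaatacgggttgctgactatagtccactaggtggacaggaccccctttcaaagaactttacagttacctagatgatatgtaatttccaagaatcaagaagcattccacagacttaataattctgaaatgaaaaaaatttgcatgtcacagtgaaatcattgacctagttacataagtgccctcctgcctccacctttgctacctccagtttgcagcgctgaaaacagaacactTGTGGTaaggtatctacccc

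RefSeq's table held such a stretch for 6 of the 7 receptors, all but Ccr7. The Runx motif was found, with both strands searched, in Cx3cr1 at -54 and Ccr1 at -58 on the strand opposite to the gene and in Ccr6 at +31 on the gene's strand, and it was not found in those of Cxcr4, Ccr2 and Ccrl2. The bases before the span of the Ccr2 gene were not searched. Of all 32851 mouse entries of this length, 16.8% hold it. The core of PU.1 sites, GAGGAA, was found on either strand in Ccr1 at -129 and Ccr6 at -218, and in 28.3% of all entries. The AP-1 motif TGANTCA was in none of the 6, against 7.8% of all entries, and no match overlapped a match of another motif. These matches are letters in a window and say nothing of binding.

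By the same annotation, Cxcr4 lies at chr1:128588199-128592299, Ccr6 at chr17:8236041-8258519 and Ccr7 at chr11:99144199-99155077. The other 4 genes share chromosome 9, with Ccrl2 at chr9:111054834-111057518, Cx3cr1 at chr9:120048683-120068296, Ccr1 at chr9:123962126-123968692 and Ccr2 at chr9:124101918-124109140. Ccr1 and Ccr2 belong to one cluster of receptor genes, with 133.2 kb between them, in which Ccr3 stands between the pair. Ccr6 overlaps the annotated gene Gm33799 and Cx3cr1 overlaps Gm33858, and whether the authors' counting used strand was not given, so molecules from the overlapped parts cannot be told apart.

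The unit below is the authors' scaled count, a count of molecules brought to a total of 37092 in every library. The depth was 74620 to 77419 molecules for 1.5M KO, 40254 to 51848 for 1.5M wt, 30913 to 51001 for P5 KO and 34192 to 52208 for P5 wt. A group with 0 molecules of a gene allows for up to 3 in its libraries together, a scaled count of 0.485 for 1.5M KO, 0.831 for 1.5M wt, 0.907 for P5 KO and 0.895 for P5 wt, for counting error only. Cbfb, whose splice forms the table does not separate, had 1.92, 0.99 and 2.4 in 1.5M KO, 13.8, 7.15 and 10.7 in 1.5M wt, 3.63, 1.45 and 2.4 in P5 KO and 4.97, 4.34 and 3.91 in P5 wt. Its level was lower in KO in all 3 libraries at both ages and passed the test at 1.5M (log2 difference -2.05, limma adjusted p = 0.00132) but not at P5 (-0.67, adjusted p = 0.49). Of the genes behind the sorted phenotype, Ptprc, Itgam, Cd74 and the MHC class II genes had a sum of at least 980.0 in every library. That sum came mostly from Cd74 and the MHC class II genes and says little of Itgam, the gene of CD11b. Itgam was low but above 0 in every library, from 1.43 in a 1.5M wt library to 13.6 in a P5 KO library. Cd3e and Cd3g were at 0 in every library. Cd3d had 1 molecule, in P5 KO, and Cd247 had 1 each in P5 KO and P5 wt. Cd207, the gene of langerin that defines Langerhans cells, averaged 21.0 ± 3.41 (SD, n = 3) in 1.5M KO and 214.1 ± 33.7 in 1.5M wt, was at 0 in all P5 KO libraries and averaged 1.58 ± 1.19 in P5 wt. The P5 KO libraries 1 and 2 held haemoglobin RNA (summed erythroid level 357.2 and 481.5, against 0.396 in library 3). All 3 P5 KO libraries stood above all other libraries in summed keratinocyte markers, most in library 1, and in summed neutrophil markers, most in library 3. The summed level of 15 keratinocyte markers was 244.9 to 758.7 in P5 KO against 76.2 to 111.2 in P5 wt, and at most 47.0 in the 1.5M libraries. That of 8 neutrophil markers was 42.9 to 236.4 in P5 KO, with Mpo and Elane at 0, against 0 to 3.91 in P5 wt, and 0 in all 1.5M libraries. In P5 KO it came mostly from S100a8 (35.4, 26.9 and 94.8) and S100a9 (34.5, 16 and 104.4). Of the other markers, Ngp, Camp and Ltf were each above 0 in 1 P5 KO library and Retnlg in 2.

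Loss of Cbfβ2 went with more Cxcr4 and Cx3cr1 RNA at both ages. In 1.5M wt these 2 receptors, together with Ccr2, Ccr1 and Ccr6, were not detected at all, and in 1.5M KO Cxcr4 averaged 39.2 ± 3.42 and Cx3cr1 19.8 ± 4.07 scaled counts (SD, n = 3). At P5, Ccr2 was higher in KO as well. At 1.5M, 2 of the 7 receptors were called higher in KO and 0 lower, where 3.24% of all genes tested were called higher and 2.04% lower. At P5, 3 receptors were called higher in KO, where 1.15% of all genes were called higher and 0.649% lower. Ccr6 was called lower at P5, but it was tested only because P5 wt had values for it, so its calls against P5 wt are not counted here as results. At P5 the keratinocyte and neutrophil sums were also higher in every KO library than in every wt library, and their part in the receptor differences was not tested. The medians of the log2 differences over the 7 receptors were 0.83 at 1.5M and 1.38 at P5, beside 0.09 and -0.01 over all genes tested. These medians include Ccr6, at 0.19 and -1.44, which was tested only through its P5 wt values, so they are a description.

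With age, Cxcr4 was called in opposite directions in the 2 genotypes, while Ccr2 and Ccr1 were called lower at 1.5M in both. In wild type, 4 receptors, namely Cxcr4, Cx3cr1, Ccr2 and Ccr1, were called lower at 1.5M than at P5 and 0 higher, where 2.84% of all genes were called lower and 2.36% higher. With median-of-ratios scaling the balance over all genes turned, with 61.1% of the calls higher, against 45.4% in the fit reported, and the calls of these 4 receptors held under that scaling. In KO, Cxcr4 was called higher at 1.5M than at P5 and Ccr2 and Ccr1 lower, where 1.72% of all genes were called higher and 1.43% lower. The call for Cxcr4 in KO was lost whichever library was left out (adjusted p 0.056 to 0.125), and the P5 KO libraries had higher sums of keratinocyte and neutrophil markers than the 1.5M KO libraries, as given above. The knockout difference was larger at 1.5M than at P5 for 2 receptors, Cxcr4 and Cx3cr1, where 1.32% of all genes were called in that direction and 0.678% in the other. The knockout comparison at 1.5M and the age comparison in wild type share the 1.5M wt libraries, so their calls are not separate evidence. Likewise the knockout comparison at P5 and the age comparison in KO share the P5 KO libraries.

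**Figure D1:**
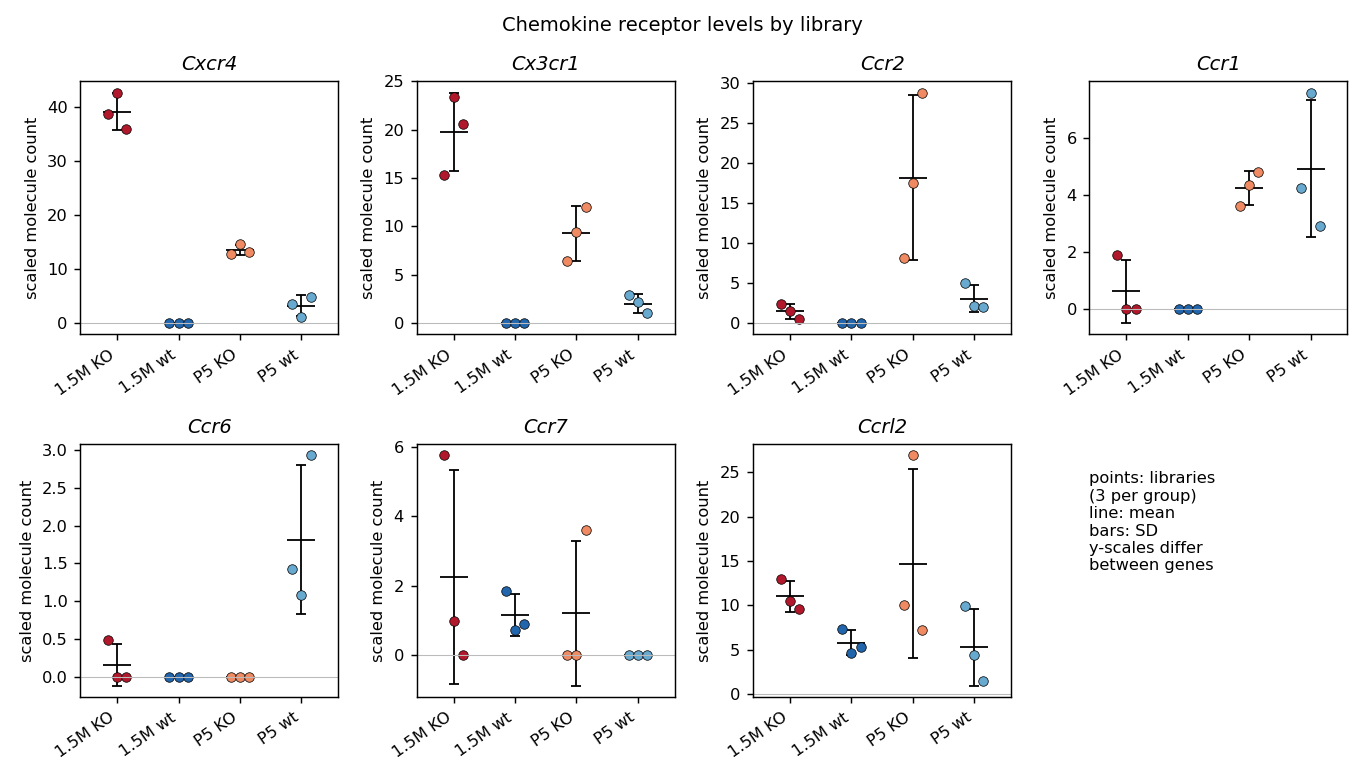
Scaled count of each of the 7 chemokine receptors in each library (points), with the mean and SD of the 3 libraries of a group. The 1.5M wt libraries are at 0 for Cxcr4, Cx3cr1, Ccr2, Ccr1 and Ccr6, while the 1.5M KO libraries reach 42.8 for Cxcr4.

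Cxcr4 had the largest knockout difference of the 7 receptors at 1.5M. Its scaled counts were 38.8, 42.8 and 35.9 in 1.5M KO, 0, 0 and 0 in 1.5M wt, 12.7, 14.6 and 13.2 in P5 KO and 3.55, 1.08 and 4.88 in P5 wt. Every KO library lay above every wt library of its age, and every 1.5M KO library above every P5 KO library. The 242 molecules over the 1.5M KO libraries, set against 0 in 1.5M wt, give a level at least 47.1-fold higher in KO, taking 3 molecules over the 1.5M wt group as the floor. On the scale of log2(scaled count + 1), which understates changes of low genes, the difference was 5.32 (SE 0.36, limma adjusted p = 6.53e-10), and it stayed past the threshold of 0.05 under all 15 alternatives. At P5 the level in KO was 4.25-fold that in wt (log2 difference 1.92, SE 0.36, adjusted p = 0.00609), a call lost with a pseudocount of 0.1 (adjusted p = 0.0581), after thinning to equal depth (0.212) and without P5 KO libraries 1 and 2 together (0.14), where the lone library left is assumed to vary like the other groups. The increase at 1.5M exceeded that at P5 by 3.4 (SE 0.51, adjusted p = 0.000297), and this call held under all 21 alternatives. With age Cxcr4 fell in wild type (log2 difference -1.93, adjusted p = 0.00148, at least 3.82-fold), although not with a pseudocount of 10 (adjusted p = 0.145). It was higher in 1.5M KO than in P5 KO (2.9-fold, log2 difference 1.47, adjusted p = 0.0232), and this last call was lost whichever of the 6 libraries was left out (adjusted p 0.056 to 0.125), with a pseudocount of 0.1 (0.201), after thinning (0.0808) and without P5 KO libraries 1 and 2 together (0.229).

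In these pools of cells, fewer cells that express a receptor and less RNA per cell cannot be told apart. Marker lists of cell types differed between the same groups. Of 15 monocyte and macrophage markers tested, 9 were called higher and 0 lower in KO at 1.5M, beside 3.24% and 2.04% of all genes, and 4 higher and 0 lower at P5, beside 1.15% and 0.649%. The calls at P5 were Cd14, Fcgr1, Lyz2 and F13a1. F13a1 passed the filter only through its P5 KO values, so its call is a description and not a result. The summed level of all 19 in the table was 578.6 to 669.8 in 1.5M KO against 78.7 to 104.4 in 1.5M wt, and at P5 213.8 to 263.4 in KO against 162.1 to 203.9 in wt. Within it, Mrc1 and Ms4a7 were at 0 in 1.5M wt, and Ly6c2, the marker of classical monocytes, was at 0 in both 1.5M groups and in P5 wt. The summed level of 9 Langerhans cell markers was 36.3 to 51.3 in 1.5M KO against 413.7 to 510.0 in 1.5M wt, and at P5 14.0 to 24.1 in KO against 72.7 to 78.1 in wt. Their part in the receptor differences was not tested.

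Cx3cr1 followed the same order of groups as Cxcr4. It was at 15.4, 23.4 and 20.6 in 1.5M KO, at 0 in all 3 libraries of 1.5M wt, at 6.36, 9.45 and 12 in P5 KO and at 2.84, 2.17 and 0.98 in P5 wt. KO and wt did not overlap at either age, and neither did the 2 KO groups, whose nearest libraries were at 15.4 and 12. In 1.5M KO the level was at least 23.8-fold that of 1.5M wt (log2 difference 4.36, SE 0.38, adjusted p = 4.31e-08, past the threshold under all 15 alternatives). In P5 KO it was 4.64-fold that of P5 wt (1.79, SE 0.38, adjusted p = 0.0148). The call at P5 was lost without P5 wt library 3 (adjusted p = 0.0858), P5 KO library 2 (0.0522) or P5 KO library 3 (0.0735). It was also lost when the pseudocount was 0.1 (0.102), with thinning (0.0874), with voom (0.0695) and without P5 KO libraries 1 and 2 together (0.0785). The knockout difference at 1.5M exceeded that at P5 by 2.56 (SE 0.54, adjusted p = 0.00919). That call was lost after thinning (0.0542) and without P5 KO libraries 1 and 2 together (0.123). With age Cx3cr1 fell in wild type (-1.53, adjusted p = 0.0176, at least 2.4-fold), which did not pass without P5 wt library 1 (adjusted p = 0.0784) or 2 (0.0546), with a pseudocount of 10 (0.357) and when only these 6 libraries were fitted (0.0653). Between 1.5M KO and P5 KO the log2 difference of 1.03 (95% interval 0.25 to 1.82) did not pass (adjusted p = 0.172), although it passed with a pseudocount of 10 (0.63, adjusted p = 0.0126) and with voom (1.07, adjusted p = 0.0281).

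Ccr2 set the ages apart within the knockout. Its scaled counts were 2.4, 1.49 and 0.48 in 1.5M KO, 0, 0 and 0 in 1.5M wt, 8.17, 17.5 and 28.8 in P5 KO and 4.97, 2.17 and 1.95 in P5 wt. Every P5 KO library was above all 9 others, and the P5 KO libraries spread the most among themselves. In 1.5M KO the mean was 12.5-fold lower than in P5 KO (1.46 ± 0.96 against 18.1 ± 10.3, log2 difference -2.88, SE 0.48, adjusted p = 0.000608), and this call held under all 16 alternatives. At P5 the mean in KO was 5.98-fold that in wt (log2 difference 2.17, SE 0.48, adjusted p = 0.0191). It did not pass without P5 wt library 2 (adjusted p = 0.076), P5 wt library 3 (0.0976), P5 KO library 2 (0.0715) or P5 KO library 3 (0.115), nor when the pseudocount was 0.1 (0.198). The sums of neutrophil markers in P5 KO libraries 1, 2 and 3 were 80.8, 42.9 and 236.4. Whether what raised these sums bears on the Ccr2 differences was not tested.

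At 1.5M the 9 Ccr2 molecules of the KO libraries, against 0 in wt, gave a level at least 1.75-fold higher, and the difference did not pass (log2 difference 1.22, 95% interval 0.23 to 2.2, adjusted p = 0.186). It passed with a pseudocount of 0.1 (log2 difference 3.72, adjusted p = 0.0106). The knockout differences at the 2 ages were not shown to differ (difference -0.95, adjusted p = 0.613). In wild type Ccr2 fell with age (log2 difference -1.94, adjusted p = 0.017, at least 3.65-fold), which did not pass without P5 wt library 1 (adjusted p = 0.0947), with a pseudocount of 10 (0.305) and after thinning (0.0808).

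Ccr1, the neighbour of Ccr2 in the cluster, differed by age and not detectably by genotype. It had 1.92, 0 and 0 in 1.5M KO, 0, 0 and 0 in 1.5M wt, 3.63, 4.36 and 4.8 in P5 KO and 4.26, 7.59 and 2.93 in P5 wt. All 6 P5 libraries were above all 6 libraries of 1.5M, and the genotypes overlapped at both ages. The level was at least 5.93-fold lower in 1.5M wt than in P5 wt (log2 difference -2.49, SE 0.49, adjusted p = 0.0028), a call that held under all 15 alternatives. In 1.5M KO, with 4 molecules in 1 library, it was 6.67-fold lower than in P5 KO (-1.88, adjusted p = 0.0358). Leaving out any P5 KO library (adjusted p 0.0836, 0.0927 and 0.101 without libraries 1, 2 and 3) or 1.5M KO library 2 (0.187) or 3 (0.196) ended that call, and so did a pseudocount of 0.1 (0.106), quantile normalization (0.0588), thinning (0.0836), a fit of these 6 libraries alone (0.0725) and leaving out P5 KO libraries 1 and 2 together (0.229). The difference between KO and wt was -0.1 on the log2 scale at P5 (95% interval -1.12 to 0.92, adjusted p = 0.983) and 0.52 at 1.5M (95% interval -0.51 to 1.54, adjusted p = 0.736).

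Ccr6 was found almost solely in P5 wt. Its values were 0.48, 0 and 0 in 1.5M KO, which is a single molecule, 0, 0 and 0 in 1.5M wt, 0, 0 and 0 in P5 KO and 1.42, 1.08 and 2.93 in P5 wt, which is 6 molecules. All 3 P5 wt libraries were above the other 9. The level at P5 was at least 2.0-fold lower in KO than in wt, and in wild type it was at least 2.18-fold lower at 1.5M than at P5. A gene at 0 in nearly all other libraries is tested only if its values in P5 wt are above 0, so these differences are a description. The limma fit gave both an adjusted p under 0.05 (0.0277 and 0.0112), the first of which was 0.0537 when no filter was used.

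Ccr7 was low throughout and passed no test. It had 5.75, 0.99 and 0 in 1.5M KO, 1.84, 0.72 and 0.89 in 1.5M wt, 0, 0 and 3.6 in P5 KO and 0, 0 and 0 in P5 wt. One library carried most of it in each KO group, while all 3 libraries of 1.5M wt had some. The log2 difference between KO and wt was 0.18 at 1.5M (95% interval -1.12 to 1.49, adjusted p = 0.963) and 0.73 at P5 (adjusted p = 0.701), and that between 1.5M wt and P5 wt was 1.07 (95% interval -0.24 to 2.37, adjusted p = 0.389). The 1.5M KO library 1, highest in Ccr7, was also highest of its group in the sum of 15 markers of mature dendritic cells (161.1, against 106.6 and 95.6), with Ccl17 at 48.4 against 14.4 and 18.2. In 1.5M wt these sums were 81.1, 105.9 and 139.5, in the order of the Ccr7 values above, so the highest sum did not go with the highest Ccr7. A link between them was not tested. Without 1.5M KO library 1 the Ccr7 difference at 1.5M was -0.57, so its sign rests on 1 library.

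Ccrl2 was the only one of the 7 receptors detected in all 12 libraries. Its scaled counts were 12.95, 10.4 and 9.58 in 1.5M KO, 7.37, 4.65 and 5.33 in 1.5M wt, 9.99, 26.9 and 7.2 in P5 KO and 9.95, 4.34 and 1.47 in P5 wt. The genotypes did not overlap at 1.5M but did at P5, where P5 KO library 2 stood far above the others. The mean was 1.9-fold higher in KO at 1.5M (11.0 ± 1.75 against 5.78 ± 1.42, log2 difference 0.83, 95% interval -0.11 to 1.78, adjusted p = 0.433) and 2.8-fold higher at P5 (14.7 ± 10.7 against 5.25 ± 4.31, 1.38, interval 0.43 to 2.32, adjusted p = 0.156), and neither passed. Without P5 wt library 1 the difference at P5 passed (1.91, adjusted p = 0.0444). Values in P5 wt library 3 and 1.5M wt library 2 held fractions of a molecule, as when a molecule is shared between genes.

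Read by group, the order of the levels in 1.5M KO and P5 KO differed from receptor to receptor. Libraries that did not overlap put 1.5M KO above P5 KO for Cxcr4 and Cx3cr1 and below it for Ccr2 and Ccr1, while Ccr7 and Ccrl2 overlapped. In P5 wt, 6 of the 7 receptors were above 0 in all 3 libraries, and in 1.5M wt only Ccr7 and Ccrl2 were. Without overlap between libraries, 4 receptors were higher and 0 lower in 1.5M KO than in 1.5M wt, as were 13.9% and 7.18% of all genes tested. With Ccr6 left out, 3 were higher and 0 lower in P5 KO than in P5 wt (6.23% and 6.02% of all genes). Ccr7 was higher and Cxcr4, Cx3cr1, Ccr2 and Ccr1 were lower in 1.5M wt than in P5 wt (6.06% and 13.2% of all genes), and 2 were higher and 2 lower in 1.5M KO than in P5 KO (8.15% and 10% of all genes). Ccr6 was also lower in P5 KO and in 1.5M wt than in P5 wt without overlap. It passed the filter only through P5 wt, so those separations are not counted.

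**Figure D2:**
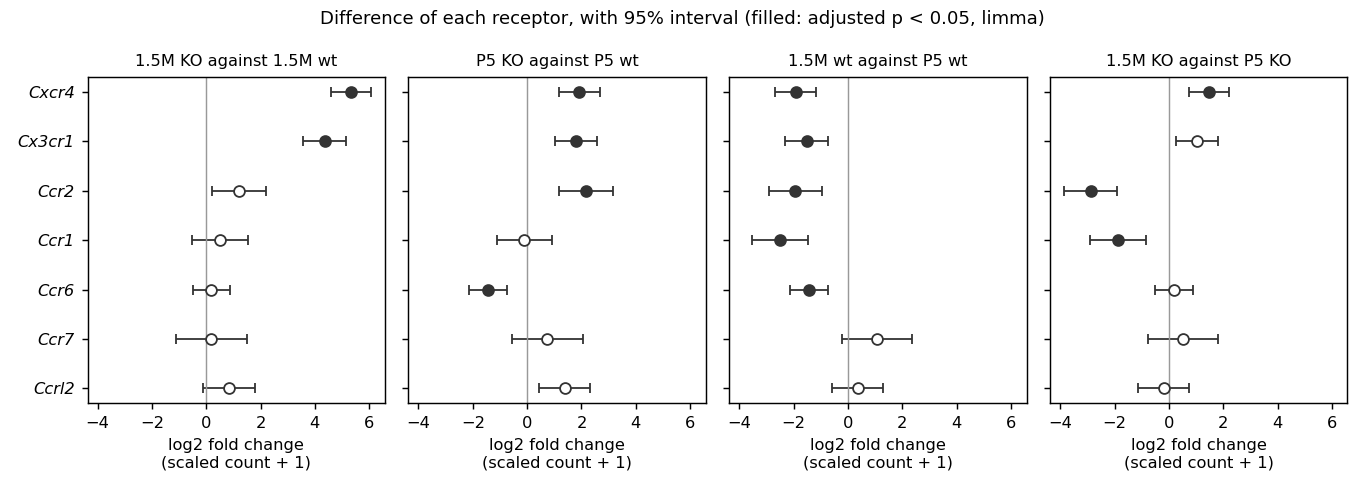
Log2 difference with its 95% interval (limma, log2(scaled count + 1)) for each receptor in the knockout and age comparisons, with filled points for adjusted p under 0.05, which for Ccr6 rest on a gene tested only through its P5 wt values. Cxcr4 and Cx3cr1 lie farthest to the higher side for KO against wt at 1.5M, at 5.32 and 4.36, and Ccr2 farthest to the lower side for 1.5M KO against P5 KO, at -2.88.

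The genes whose pattern over the 12 libraries was most like each receptor were ranked by Pearson's r of log2(scaled count + 1) among 1193 genes with a mean of at least 5. The 12 libraries form 4 groups, so the points are not independent and share the differences between groups, and each r is given as a description. For Cxcr4 the leading genes were 4632428N05Rik (r = 0.984), which RefSeq names Vsir and which encodes the checkpoint protein VISTA, Atp6v0c-ps2 (0.963) and Cd97 (0.954), an adhesion receptor of leukocytes. For Cx3cr1 they were Cd14 (0.983), the co-receptor for bacterial lipopolysaccharide, Cd97 (0.98) and the actin-capping gene Capg (0.971). For Ccr2 they were Fn1 (0.933), Ccl6 (0.919) and Stfa1 (0.914). The mean of Cd97 at 1.5M was 14.1 in KO and 0 in wt, and at P5 10.4 in KO and 2.92 in wt. That of Fn1, the gene of fibronectin, was 1.77 in KO and 0 in wt at 1.5M, and 23.1 in KO and 6.77 in wt at P5.
For Ccr1 the list was led by Hnrnpa1 and Gm5643, which have the same values in the table (0.954), and Rps19 (0.877), for Ccr7 by Pdia3 (0.874), Arpc1b (0.775) and Map4k4 (0.738), and for Ccrl2 by Ywhab (0.863), Ube2d3 (0.835) and Lyz2 (0.794), while Ccr6, above 0 in 4 libraries, was not ranked.

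Another 17 chemokine receptor genes were looked up in the table, 4 of them under older symbols. Of these, 8 were at 0 in all libraries, among them Ccr3, which lies between Ccr1 and Ccr2, and Cxcr7, the scavenger of Cxcl12. Only Cmklr1, Cxcr2 and Xcr1 had enough values to be tested, and 0 of the 3 were called in any comparison. Of all genes, 0.649% to 3.24% were called in a given direction of a comparison, so 0 calls among 3 genes are near the background. Cmklr1, the signalling receptor of chemerin, to which Ccrl2 also binds, had 1.44, 1.99 and 0.48 in 1.5M KO, 0, 0 and 0 in 1.5M wt, 0, 1.45 and 0 in P5 KO and 0, 1.08 and 0.98 in P5 wt. All 1.5M KO libraries were above all 1.5M wt libraries, and the difference did not pass (log2 difference 1.14, adjusted p = 0.19).

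Ligands of these receptors were also read from the same cells, as a list of 15 genes of which 7 were tested. In 1.5M KO against 1.5M wt, 1 was called higher and 0 lower, beside 3.24% and 2.04% of all genes. In P5 KO against P5 wt, 2 were called higher and 0 lower, beside 1.15% and 0.649%. In 1.5M wt against P5 wt, 0 were called higher and 1 lower, beside 2.36% and 2.84%. In 1.5M KO against P5 KO, 0 were called higher and 5 lower, beside 1.72% and 1.43%. At P5 the genes called were those of Ccl6 and Ccl9, mouse ligands of Ccr1. Ccl6 had 18.2, 24.7 and 31.2 in P5 KO and 10.7, 1.08 and 0 in P5 wt, and Ccl9 had 17.3, 21.1 and 15.6 in P5 KO and 2.84, 4.34 and 0 in P5 wt. Every P5 KO library was above every P5 wt library for both. The log2 differences were 3.12 (adjusted p = 0.00842) for Ccl6 and 2.78 (adjusted p = 0.00405) for Ccl9, and the call for Ccl6 was lost without P5 wt library 3 (adjusted p = 0.0609) and after thinning (0.101). Both were lost with a pseudocount of 0.1 (0.186 for Ccl6 and 0.105 for Ccl9) and without P5 KO libraries 1 and 2 together (0.136 and 0.178). At 1.5M, Ccl9 was at 7.19, 3.48 and 3.35 in KO and at 0 in wt, at least 5.63-fold higher (log2 difference 2.44, adjusted p = 0.00279, and 0.0647 after thinning).

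With age in the knockout, Ccl6, Ccl9, Ccl2, Ccl3 and Ccl4 fell. Ccl6 was at 0, 0.5 and 0 in 1.5M KO, against the P5 KO values above (log2 difference -4.46, adjusted p = 6.51e-05), and that call held under all 16 alternatives. Ccl2, the ligand of Ccr2, was at 0, 0.5 and 0 in 1.5M KO and at 3.63, 5.82 and 2.4 in P5 KO (-2.05, adjusted p = 0.0122), a call lost without 1.5M KO library 1 (0.0743) or 3 (0.0849), when the pseudocount was 0.1 (0.103) and without P5 KO libraries 1 and 2 together (0.149). Ccl4, an inflammatory chemokine, averaged 1.3 ± 0.739 in 1.5M KO and 15.4 ± 9.54 in P5 KO (-2.66, adjusted p = 0.00387, and 0.368 without P5 KO libraries 1 and 2 together), and it was also the ligand that fell with age in wild type (-2.26, adjusted p = 0.0101, but 0.0797 without P5 wt library 1 and 0.209 with a pseudocount of 10). The calls for Ccl3 (-2.54, adjusted p = 0.0386) and Ccl9 (-1.8, adjusted p = 0.0485) were lost without P5 KO library 1 (0.104 and 0.123) or 2 (0.174 and 0.143), or without 1.5M KO library 2 (0.121 and 0.165) or 3 (0.136 and 0.183), and that for Ccl9 also without P5 KO library 3 (0.0907). A pseudocount of 0.1 (0.342 and 0.467), thinning (0.0701 and 0.106) and leaving out P5 KO libraries 1 and 2 together (0.436 and 0.35) ended both as well, and for Ccl9 so did using no filter (0.0603) and median-of-ratios scaling (0.0557). The ligands of the receptors that rose most were nearly absent from the sorted cells, with 1 molecule of Cxcl12, in 1.5M KO, and 2 of Cx3cl1, 1 each in 1.5M KO and P5 KO.

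**Figure D3:**
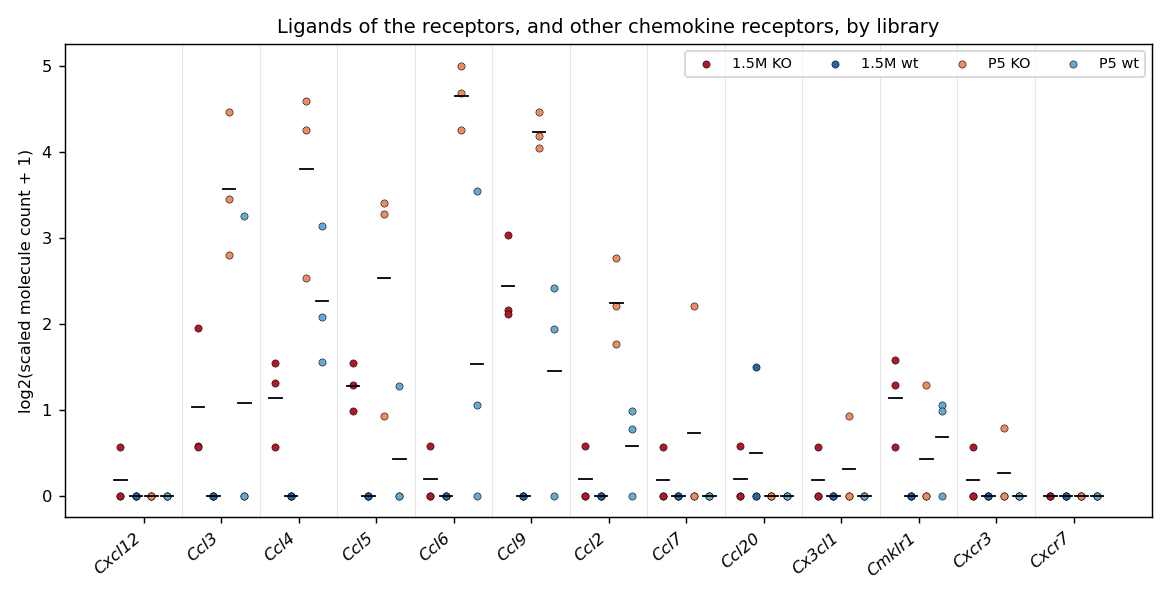
Ligand genes and other chemokine receptor genes on the scale of log2(scaled count + 1), with a point for each library and a line at the mean of the 3 libraries of a group. The P5 KO points for Ccl6 and Ccl9, which stand for scaled counts of 18.2 to 31.2 and 15.6 to 21.1, lie above those of all other groups, and Cxcr7 is at 0 throughout.

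Downstream of the receptors, 29 genes of G-protein signalling and receptor desensitisation were listed and 26 were tested. At 1.5M, Rac2 was called higher and Gnai2 and Rgs2 lower in KO, beside 3.24% and 2.04% of all genes. At P5, 0 were called higher and Rgs1 and Rgs2 lower, beside 1.15% and 0.649%. Rgs2, an accelerator of GTP hydrolysis by G proteins, averaged 25.5 ± 1.73 in 1.5M KO and 120.3 ± 23.4 in 1.5M wt (log2 difference -2.18, adjusted p = 9.4e-08), and 16.2 ± 2.65 in P5 KO and 37.1 ± 3.68 in P5 wt (-1.15, adjusted p = 0.00321). The KO libraries were below the wt libraries at both ages, and both calls held under all alternatives run for them, 15 at 1.5M and 16 at P5. Rgs1, of the same family, averaged 10.3 ± 2.81 in P5 KO and 23.4 ± 3.29 in P5 wt (-1.14, adjusted p = 0.0176), which did not pass without P5 wt library 1 (0.0756), without P5 wt library 2 (0.0509) or without P5 KO library 3 (0.088), when the pseudocount was 10 (0.0597), after thinning (0.149) and with voom (0.108).
Rac2, a small GTPase of blood cells that leukocytes need for migration, was at 5.75, 6.96 and 11.98 in 1.5M KO and at 0 in all 1.5M wt libraries, at least 9.9-fold higher (3.15, adjusted p = 6.46e-06, past the threshold under all 15 alternatives). Gnai2, a subunit of the inhibitory G proteins, averaged 61.9 ± 7.28 in 1.5M KO and 110.0 ± 24.8 in 1.5M wt (-0.8, adjusted p = 0.0151), a call lost without 1.5M KO library 1 (0.0566) or 1.5M wt library 3 (0.132) and after thinning (0.0565).
With age in wild type, Rgs1 (1.39, adjusted p = 0.000921) and Rgs2 (1.66, adjusted p = 9.34e-06) rose and Rac2 (-2.79, adjusted p = 5.36e-05) and Arrb2 fell, Arrb2 (-1.11) with an adjusted p of 0.0441 that was lost in 12 of 15 alternatives, among them those without P5 wt library 2 (0.183) or 3 (0.0997) or without 1.5M wt library 1 (0.13), 2 (0.0703) or 3 (0.0959). In the knockout Rgs1 rose with age (1.98, adjusted p = 2.05e-05), as did Cdc42 (0.79, adjusted p = 0.0494) and Elmo1 (1.37, adjusted p = 0.0327), and 0 genes of the list fell. Of all genes, 2.36% were called higher and 2.84% lower with age in wild type, and 1.72% and 1.43% in the knockout. The Cdc42 call was lost in 11 of 16 alternatives, namely without P5 KO library 1 (0.186) or 3 (0.101) or 1.5M KO library 2 (0.214) or 3 (0.254), with a pseudocount of 0.1 (0.0673) or 10 (0.0692), with no filter (0.0655), with quantile normalization (0.111), after thinning (0.359), in a fit of these 6 libraries alone (0.0866) and without P5 KO libraries 1 and 2 together (0.261). The Elmo1 call was lost in 9 of 16, namely without P5 KO library 1 (0.123) or 2 (0.086) or any 1.5M KO library (0.14, 0.0602 and 0.19), with a pseudocount of 0.1 (0.0577), after thinning (0.214), in a fit of these 6 libraries alone (0.0532) and without P5 KO libraries 1 and 2 together (0.352). The knockout effect was called different between the ages for 0 of the 26 signalling genes, 0 of the 7 ligands and 0 of the 3 other receptors, where 1.32% of all genes were called in one direction and 0.678% in the other, so 0 calls in lists of these sizes are near the background.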

How the data were processed

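RNA from 100 sorted cells per tube was reverse transcribed with oligo-dT primers that carry a molecular barcode, per the labels' protocols, so PCR copies can be counted once and splice forms with a shared 3′ end are not separated. Per the submitters' processing notes, TopHat2 aligned the reads and the build was mm10. Annotation, counting, use of strand and scaling are not given in the sources used here. Values in the deposited table are a signal, 0 or more, for each gene symbol in each library. From the values, this signal is a molecule count scaled to a total of 37092 per library. Per library, whole multiples of 1 molecule's worth, within 0.01, made up 92.6% to 94.9% of the nonzero values. This was under a limit of 95%, so the values were treated as normalized and no count test was run, of the tests allowed for counts or normalized values. Molecule numbers, used for depth, floors, thinning and voom, are therefore approximate. Spike-in RNA was added to each tube per the labels' protocols, and no scaling by it was used here. Floors cover counting error only. The 95% intervals are from the limma fit and cover the spread between library preparations. No replicate pair was as close as sampling noise alone allows (chi-square over its degrees of freedom 1.1 to 1.67), so all 12 libraries were kept.

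Values were analysed as log2(scaled count + 1). Genes above 0 in at least 3 of 12 libraries were fitted as 4 group means with limma 3.58.1 (trend option, R 4.3.3), two-sided tests, Benjamini-Hochberg adjustment over all 10023 genes and a threshold of 0.05. There were 5 comparisons, namely the genotypes at each age, the ages within each genotype, and whether the knockout effect differed with age. The fit was tested on simulated data. Replicate numbers are separate preparations and were not used as pairs. Alternatives were pseudocounts of 0.1 and 10, no filter, median-of-ratios and quantile scaling, thinning to 30797 molecules, voom, a fit of each comparison's libraries alone, a replicate block and leaving out each library. Leaving out P5 KO libraries 1 and 2 together was chosen after seeing the data. Named genes were the 7 receptors, listed receptor, ligand and signalling genes past the threshold, receptors at 0, the 3 genes most like each receptor, Cbfb, and markers. The 7 receptors, the lists and the rule were chosen with earlier results of these data known. Older symbols were matched where the table uses them (Cxcr7 for Ackr3, Cd97 for Adgre5). Sequences and positions are from RefSeq for GRCm38.p6. 1 listed receptor is not reported here.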

Additional observations from a re-analysis of the deposited data

Results flagged for a closer look

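For Cxcr4 the knockout difference was larger at 1.5M than at P5, by 3.4 on the log2(scaled count + 1) scale in the limma test of that difference (adjusted p = 0.000297), with 3 of 3 KO libraries above all wt libraries at each age. For Cx3cr1 it was larger by 2.56 (adjusted p = 0.00919), with the same separation of libraries. Both receptors were at 0 in all 1.5M wt libraries, so the size of these differences depends on the pseudocount.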

How the results depend on the processing

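Over the whole table, the genes called in P5 KO against P5 wt numbered 180, and 92 with a pseudocount of 0.1, 118 with no filter, 81 after thinning and 55 without P5 KO libraries 1 and 2 together. In 1.5M KO against 1.5M wt they numbered 529, and 330 after thinning and 841 with voom; in 1.5M wt against P5 wt 522, and 264 after thinning; in 1.5M KO against P5 KO 315, and 202 after thinning, 824 with voom and 121 without the 2 P5 KO libraries; for the difference between the knockout effects 200, and 133 with a pseudocount of 0.1, 103 after thinning, 332 with voom and 111 without the 2 P5 KO libraries. Leaving out one library gave 359 to 386 genes in 1.5M KO against 1.5M wt, 72 to 123 in P5 KO against P5 wt, 346 to 389 in 1.5M wt against P5 wt, 169 to 246 in 1.5M KO against P5 KO and 141 to 193 for the difference. Voom shifted the median of all genes by -0.28 in 1.5M KO against P5 KO, where 28.5% of its calls were higher, against 54.6%, and for the difference 54.8% of its calls were higher, against 66%; quantile normalization shifted the median by 0.15 in 1.5M wt against P5 wt.

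Of the 7 receptors, counting Ccr6, which was tested only through its P5 wt values, the number called in P5 KO against P5 wt was 4, and 0 with a pseudocount of 0.1, 2 after thinning or with voom and 1 without the 2 P5 KO libraries; in 1.5M wt against P5 wt 5, and 2 with a pseudocount of 10 and 3 when its libraries were fitted alone; in 1.5M KO against P5 KO 3, and 1 with a pseudocount of 0.1, after thinning or without the 2 P5 KO libraries; for the difference 2, and 1 after thinning or without them. Leaving out one library gave 2 in each case in 1.5M KO against 1.5M wt, 1 to 5 in P5 KO against P5 wt, 3 to 5 in 1.5M wt against P5 wt, 1 to 2 in 1.5M KO against P5 KO and 2 to 3 for the difference.

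Signs turned only in receptor differences that passed no test. With a pseudocount of 0.1, Ccr7 was at -0.43 in 1.5M KO against 1.5M wt and Ccr2 at 1.23 for the difference between the knockout effects. With voom, Ccr6 was at -0.27 and Ccr7 at -0.28 in 1.5M KO against 1.5M wt, and Ccr6 at -0.45 in 1.5M KO against P5 KO. Without the 2 P5 KO libraries, Ccr1 was at 0.04 in P5 KO against P5 wt, Ccr7 at -0.95 and Ccrl2 at 0.54 in 1.5M KO against P5 KO, and Ccrl2 at 0.19 for the difference. Leaving out one library moved Ccr7 over -0.57 to 0.81 in 1.5M KO against 1.5M wt, Ccr1 over -0.36 to 0.21 in P5 KO against P5 wt, Ccrl2 over -0.19 to 0.88 in 1.5M wt against P5 wt, Ccr7 over -0.24 to 1.25 and Ccrl2 over -0.56 to 0.33 in 1.5M KO against P5 KO, and Ccr7 over -1.3 to 0.18 for the difference. The causes were not tested, apart from fewer libraries or molecules where an alternative removes them.

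The replicate numbers did not pair the samples: deviations of same-numbered libraries correlated at -0.02 to 0.02, and a library correlated best with its own number in 3 of 12 pairs, all in P5 KO against P5 wt. With the number as a replicate block, 147 genes were called in P5 KO against P5 wt, and as many receptors passed in each comparison as without it. Depth limits the low receptors, since 6 molecules carry Ccr6 in P5 wt.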

Other observations

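Genes of monocytes and macrophages beside the receptors took several courses. Ly6c2, a surface marker of classical monocytes, was at 0, 7.27 and 2.4 scaled counts in P5 KO and at 0 in the other 9 libraries. F13a1, the gene of a coagulation factor subunit made by monocytes and macrophages, was at 2.72, 3.64 and 2.4 in P5 KO and at 0, 1.08 and 0 in P5 wt, and at 0 in all 6 libraries of 1.5M. Mrc1, the macrophage mannose receptor, was at 22.1, 17.4 and 13.9 in 1.5M KO and 0 in all 1.5M wt libraries, and at 10.9, 5.09 and 19.2 in P5 KO and 11.4, 6.51 and 7.81 in P5 wt.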
